A study of Homo sapiens with 34 samples.

Results

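The aminoacyl-tRNA synthetases are the enzymes that load each amino acid onto its tRNA. The 39 genes described here were 20 cytosolic enzymes, 16 mitochondrial enzymes and the 3 scaffold proteins *AIMP1*, *AIMP2* and *EEF1E1*. They were taken by symbol, and the family was chosen from its log2 ratios in the same 6 comparisons, so that these ratios are given as a description and no test was run on them. All 39 genes were listed in all 6 tables, which together listed 17587 genes, 13307 of them in every table. Symbols are those of the tables. Newer names add a 1 to each cytosolic symbol except *FARSA* and *FARSB*, as in AARS1 for *AARS*.

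The RNA came from 3 human B-cell acute lymphoblastic leukemia (B-ALL) lines, which differ in their fusion gene: ETV6-PDGFRB in NALM-6, MLL-AF4 in RS4;11 and BCR-ABL in BV-173. In the knockdown comparison, cells that carried a lentiviral shRNA against *CCND3* (shCCND3) were set against cells with a scrambled shRNA, both sorted 4 days after transduction. In the palbociclib comparison, cells given the CDK4/6 inhibitor palbociclib at 1 µM for 3 days were set against cells given the solvent DMSO. The 34 samples formed 12 groups of 3, except that NALM-6 with shCCND3 and BV-173 with DMSO had 2. Each group is a culture of 1 established line, and the labels name 1 target for the shRNA without giving its sequence, so effects of that construct beyond *CCND3* cannot be told apart from those of *CCND3*.

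The tables used here gave 1 value per group and gene, computed by the authors and scaled within a comparison. Neither the replicate error nor the sequencing depth of a sample can therefore be given, and the error below is the SD over the 3 lines. A gene is called lower or higher here when the 2 group values of a comparison differed by at least 1.5-fold, which is 0.585 on the log2 scale. Values of 3 lines are given in the order NALM-6, RS4;11 and BV-173. In bulk RNA, fewer cells of a type and less RNA per cell cannot be told apart.

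*CCND3*, the cyclin targeted by the shRNA, was at 19498, 16178 and 6619 with scrambled shRNA and at 4727, 3353 and 2059.6 with shCCND3, which is 24.2%, 20.7% and 31.1% of the control. With palbociclib it was at 78%, 81.8% and 76% of the DMSO value. The labelled cell type was checked with 10 genes of B-cell precursors, among them PAX5 and VPREB1. All 10 were listed in all 12 groups and 9 were at 100 or more in each, the exception being DNTT in RS4;11. The summed values of T-cell genes were 0.869 to 7.70 per group and those of erythroid genes at most 1.22, against 61932 to 103083 for the B-cell precursor genes. Myeloid genes summed to 71.9 to 1165 and genes of stroma and epithelium to 0.322 to 216.

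Aminoacyl-tRNA synthetases set the genetic code, because each enzyme joins its amino acid to the tRNAs that decode it, *EPRS* doing so for both glutamate and proline. The cytosol and the mitochondrion have separate sets, both encoded in the nucleus, except that *GARS* and *KARS* serve both compartments from 1 gene each. Several cytosolic enzymes sit with the 3 scaffold proteins in the multisynthetase complex, and the transcription factor ATF4, which is translated when amino acids run short, is known to activate many of the cytosolic genes.

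In the control groups, which carried scrambled shRNA or were given DMSO, the cytosolic enzymes were the more abundant set. Per kilobase of transcript, the median level of the cytosolic enzymes was 1455 to 2239 over the 6 control groups, and that of the mitochondrial enzymes was 246 to 315. The ratio of the medians was 5.01 to 8.59. All genes of a control group had a median of 104 to 119 on the same scale. In all 14 pairs of a cytosolic and a mitochondrial gene for the same amino acid (*FARSA*, the alpha chain, stood for phenylalanine, whose cytosolic enzyme has a second chain from *FARSB*), the cytosolic gene had the higher level per kilobase in the NALM-6 and RS4;11 controls. In the BV-173 controls 13 of the 14 did so, the exception being *IARS*, which lay under *IARS2*. By the median over the 6 controls, *GARS* led with 3284, followed by *SARS* with 2917 and *KARS* with 2900. The ranges of these 3 over the controls overlapped, at 1470 to 4527, 1935 to 3805 and 2192 to 3203. *IARS2*, for mitochondrial isoleucine, was the highest mitochondrial enzyme with 980 (rank 17), and *PARS2*, for mitochondrial proline, was lowest of all with 103. These levels per kilobase came from tables that were scaled separately.

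With palbociclib most cytosolic enzymes had lower values than with DMSO, and most mitochondrial enzymes stayed nearer to their controls. Of the 39 genes, 18 were lower in NALM-6 (12 cytosolic, 4 mitochondrial, 2 scaffold), where 14.9% of all genes listed were lower. In RS4;11, 14 were lower (12 cytosolic, 1 mitochondrial, 1 scaffold) against 15.0% of all genes, and in BV-173, 10 were lower, all of them cytosolic, against 11.9%. As shares of the 39 genes these counts are 46.2%, 35.9% and 25.6%. None of the 39 was higher by 1.5-fold in any line, while 21.4%, 16.7% and 13.6% of all genes were. All 39 had a mean group value of at least 100. Of all genes at that level, 18.2%, 16.3% and 14.3% were lower and 13.8%, 13.5% and 11.4% higher. *AARS*, *CARS*, *DARS*, *GARS*, *MARS*, *NARS*, *SARS* and *YARS* were lower in all 3 lines, which is 20.5% of the 39 genes, beside 5.95% of the genes listed in the 3 palbociclib tables (and 4.53% that were higher in all 3). Since the family was chosen with these ratios known, nothing is read from the shares.

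**Figure D1:**
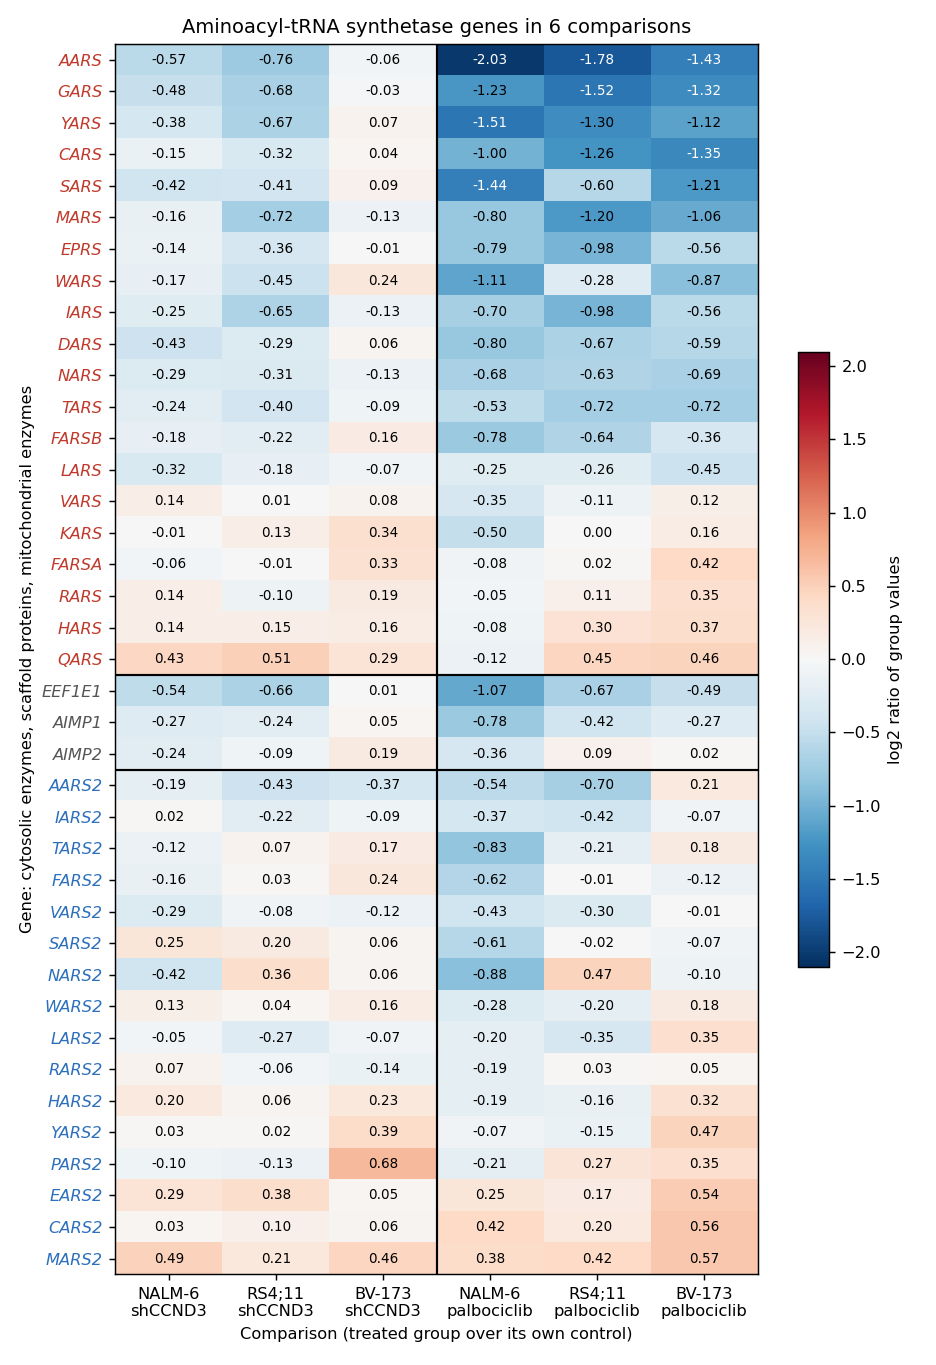
Log2 ratio of the treated over the control group value for 39 genes (rows) in 6 comparisons (columns), blue for lower and red for higher values. Rows are grouped into cytosolic enzymes (red names), scaffold proteins (grey) and mitochondrial enzymes (blue) and ordered by the palbociclib mean. The darkest cells are AARS with palbociclib, at -2.03 in NALM-6, and the BV-173 shCCND3 column is pale except for PARS2 at 0.68.

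*AARS*, the alanyl-tRNA synthetase (chr16:70252298-70289506 in GRCh38.p14), had the lowest palbociclib ratio of the family. Its DMSO values were 10011, 6154 and 11813, and its palbociclib values were 2447, 1797 and 4387. The highest palbociclib value lay below the lowest DMSO value, and the drug-treated cells kept 24.4%, 29.2% and 37.1% of their controls. Here and below, overlap is judged between single group values of the 3 lines, which were scaled separately, and not between replicates. The mean log2 ratio was -1.75 ± 0.30 (SD, n = 3 lines).

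*GARS*, the glycyl-tRNA synthetase of both cytosol and mitochondria (chr7:30594735-30634033), was at 8028, 4117 and 11114 with DMSO and at 3424, 1437 and 4447 with palbociclib. It was lower in every line, although BV-173 with the drug, at 4447, stood above RS4;11 without it. The mean log2 ratio was -1.36 ± 0.15. *YARS*, for tyrosine (chr1:32775239-32817358), went from 10546, 7454 and 8740.0 to 3703, 3032 and 4028, with no overlap between DMSO and palbociclib groups and a mean log2 ratio of -1.31 ± 0.20. *CARS*, for cysteine (chr11:3000929-3057423), is expressed at a lower level and went from 1812, 2009.7 and 2689 to 908, 838 and 1052, again without overlap, with a mean log2 ratio of -1.20 ± 0.19.

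**Figure D2:**
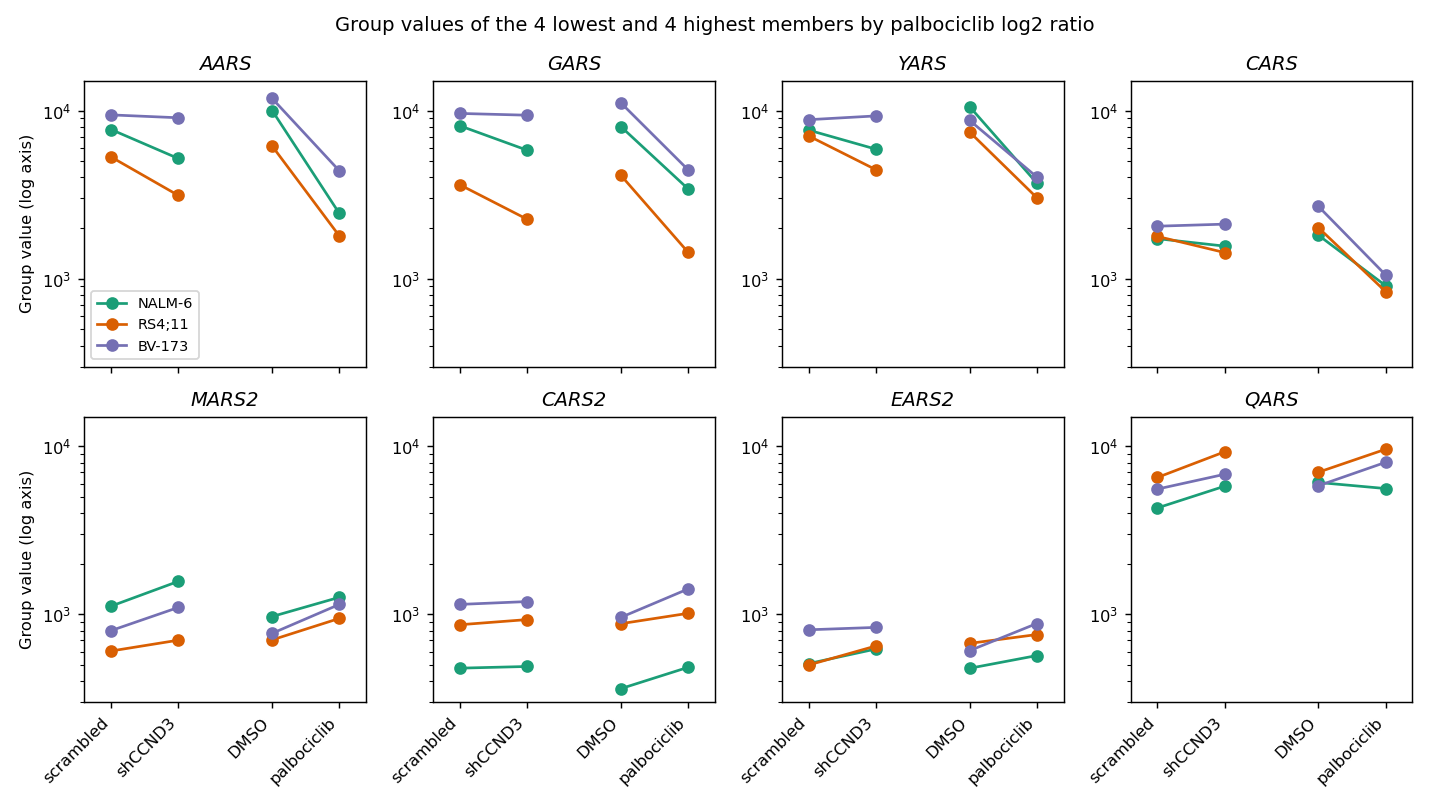
Group values (log axis) of the 4 genes with the lowest and the 4 with the highest mean palbociclib log2 ratio, 1 point per group, with lines joining the control and treated group of a comparison and colours for the cell lines. AARS, GARS, YARS and CARS slope down with palbociclib in all 3 lines and with shCCND3 in NALM-6 and RS4;11, while MARS2, CARS2 and EARS2 slope up with palbociclib in all 3 lines.

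The other 4 genes that were lower in all 3 lines differed in how evenly the lines responded. *SARS*, for serine, had log2 ratios of -1.44, -0.60 and -1.21, and *MARS*, for methionine, had -0.80, -1.20 and -1.06. *NARS*, for asparagine, was even across the lines, at -0.68, -0.63 and -0.69, and *DARS*, for aspartate, had -0.80, -0.67 and -0.59. *SARS* in RS4;11 and *DARS* in BV-173 lay just past the threshold. *LARS*, for leucine, was the only further cytosolic enzyme besides *EPRS*, *FARSB*, *IARS*, *TARS* and *WARS* with a negative ratio in each line, at -0.25, -0.26 and -0.45, and it passed the threshold in none.

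*EPRS* (glutamate and proline), *FARSB* (the beta subunit for phenylalanine), *IARS* (isoleucine), *TARS* (threonine), *WARS* (tryptophan) and *EEF1E1* were lower in 2 lines. For *EPRS* and *IARS* the third value, in BV-173, was -0.56 for both, just short of the threshold, and for *TARS* it was -0.53 in NALM-6. *WARS* was at -1.11, -0.28 and -0.87, with RS4;11 the least changed. *AARS2*, *FARS2*, *NARS2*, *SARS2*, *TARS2* and *AIMP1* were lower in 1 line each, *AARS2* in RS4;11 and the others in NALM-6. The members nearest to the threshold were *SARS2* (-0.61) inside and *AARS2* (-0.54) outside in NALM-6, *SARS* (-0.60) and *IARS2* (-0.42) in RS4;11, and *DARS* (-0.59) and *EPRS* (-0.56) in BV-173.

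At the other end stood *MARS2*, *CARS2* and *EARS2*, the mitochondrial enzymes for methionine, cysteine and glutamate, and cytosolic *QARS*, for glutamine. *MARS2* went from 972, 705 and 772 with DMSO to 1264, 946 and 1147 with palbociclib, with a mean log2 ratio of 0.46 ± 0.10. *CARS2* went from 362, 881 and 961 to 484, 1015 and 1417 (0.40 ± 0.18). Both had a higher value in each line, short of 1.5-fold. *EARS2* had ratios of 0.25, 0.17 and 0.54. *QARS* had ratios of -0.12, 0.45 and 0.46, so that its values were higher in RS4;11 and BV-173 and not in NALM-6. The same split appeared in *RARS* (arginine), at -0.05, 0.11 and 0.35, and in *KARS* (lysine), at -0.50, 0.00 and 0.16, both lowest in NALM-6. *VARS*, for valine, was at -0.35, -0.11 and 0.12.

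The promoters of the family were searched for the C/EBP-ATF composite element TGATGNAA, the sequence that ATF4 and a C/EBP partner are known to bind. RefSeq promoter windows of GRCh38.p14, from 250 bases before to 50 bases after a start, were at hand for 33 of the 39 genes (11 of them with more than 1 start), the others being *DARS*, *LARS*, *VARS*, *YARS*, *AARS2* and *VARS2*. Both strands were searched. The element was found in 7 of 16 cytosolic enzymes, 1 of 14 mitochondrial enzymes and none of the 3 scaffold proteins, that is in 8 of 33 genes (24.2%), beside 3.36% of the listed genes with a window and 4.46% of all 27305 genes with one. Of the 8 sites, 7 belong to genes whose palbociclib ratio was negative in all 3 lines. With or without a window, 14 of the 20 cytosolic enzymes, 4 of the 16 mitochondrial enzymes and 2 of the 3 scaffold proteins had such ratios. The family was chosen with these ratios known, so nothing is read from the overlap. All 8 sites are shown. They are written 5′ to 3′ on the strand of the gene, with the 8 bases that match the element, in either orientation, in capitals and 10 bases on each side.
AARS: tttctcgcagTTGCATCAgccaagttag
CARS: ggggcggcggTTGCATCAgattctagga
GARS: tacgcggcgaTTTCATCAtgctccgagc
IARS: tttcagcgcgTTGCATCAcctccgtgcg
MARS: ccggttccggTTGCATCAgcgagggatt
NARS: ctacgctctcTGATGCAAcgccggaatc
TARS: cgcctttcgaTTGCATCAgctggtccag
YARS2: tccacactgcTGATGGAAaaattaagtt
Counted from the start of the window that held it, the match began 187 bases before the start of *AARS* (chr16:70289676-70289703, minus strand), 2 bases before that of *CARS* (chr11:3057408-3057435, minus), 33 bases before that of *GARS* (chr7:30594835-30594862, plus) and 13 bases before that of *IARS* (chr9:92293693-92293720, minus). It began 4 bases before the start of *MARS* (chr12:57488054-57488081, plus strand), 15 bases into the transcript of *NARS* (chr18:57621805-57621832, minus), 3 bases into that of *TARS* (chr5:33440957-33440984, plus) and 197 bases before the start of *YARS2* (chr12:32756077-32756104, minus). *AARS*, *CARS*, *IARS*, *MARS*, *NARS* and *TARS* carried the same 8 bases, TTGCATCA or its reverse complement TGATGCAA, and *GARS* and *YARS2* each had another base at the free position. The mean palbociclib log2 ratios of the 7 cytosolic genes were -1.75 (*AARS*), -1.36 (*GARS*), -1.20 (*CARS*), -1.02 (*MARS*), -0.75 (*IARS*), -0.66 (*NARS*) and -0.66 (*TARS*), and that of *YARS2* was 0.09. *EPRS*, *FARSB*, *SARS*, *WARS* and *EEF1E1*, at -0.78, -0.59, -1.08, -0.75 and -0.74, had a window without these letters, so the match and a low ratio did not go together in every gene. A match is a stretch of letters and no measurement of binding.

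Further elements were searched in the same windows. The E-box CACGTG, which MYC and its partners bind, was found in *IARS*, *CARS2*, *EARS2*, *MARS2* and *AIMP2*, which is 5 of the 33 genes (15.2%), beside 11.4% of all listed genes with a window. The ETS element CCGGAAGT was found in *CARS*, *HARS*, *NARS*, *TARS*, *WARS*, *EARS2*, *HARS2* and *PARS2* (8 of 33, 24.2%, beside 7.77%). The NRF1 element GCATGCGC was found in *MARS2* and *YARS2* (2 of 33, 6.06%, beside 5.25%). Close to its start, *MARS2* held an E-box and an NRF1 element where *MARS*, the cytosolic enzyme for the same amino acid, held the composite element. Its E-box site is chr2:197705348-197705373 (plus strand), and is shown with the E-box in capitals, as the counterpart of the *MARS* site above.
MARS2: gcgcctctcaCACGTGctgtcagaac

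*HARS* and *HARS2*, the cytosolic and mitochondrial enzymes for histidine, lie head to head on chromosome 5 with their starts 85 bases apart. The 84 bases between them (chr5:140691371-140691454, read on the plus strand from *HARS* towards *HARS2*) hold 2 ETS elements, in capitals, 1 next to each start.
HARS TO HARS2: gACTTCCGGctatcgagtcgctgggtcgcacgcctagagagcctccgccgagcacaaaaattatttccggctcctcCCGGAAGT
The genes that share this stretch both stayed close to their controls with palbociclib, at -0.08, 0.30 and 0.37 for *HARS* and -0.19, -0.16 and 0.32 for *HARS2*. With shCCND3 they were at 0.14, 0.15 and 0.16 and 0.20, 0.06 and 0.23. The proteins are close paralogs, and how reads common to both were divided rested on the authors' estimation step.

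The cytosolic enzymes were then split by a list written from general knowledge and with earlier results of these data known, so that the split is a description and no independent evidence. It held 12 enzymes that are usually named among the targets of ATF4 (*AARS*, *CARS*, *EPRS*, *GARS*, *IARS*, *LARS*, *MARS*, *NARS*, *SARS*, *TARS*, *WARS* and *YARS*), and the other 8 were *DARS*, *FARSA*, *FARSB*, *HARS*, *KARS*, *QARS*, *RARS* and *VARS*. With palbociclib, all 12 had a negative log2 ratio in all 3 lines. Of the 12, 7 were lower by 1.5-fold in all 3, beside 5.95% of all genes. Of the other 8, *DARS* and *FARSB* were negative in all 3 lines, and *DARS* was lower by 1.5-fold in all 3. The medians were -0.90, -0.98 and -0.97 in the 12 and -0.23, 0.01 and 0.26 in the 8. The composite element was found in 7 of the 10 listed enzymes with a window and in none of the 6 others. Since ATF4 is known to bind this element, the list and the match are not independent, and nothing is read from these counts. *ATF4* itself had DMSO values of 13924, 13877 and 17433 and palbociclib values of 6863, 6545 and 8763, without overlap, and log2 ratios of -1.02, -1.08 and -0.99. With shCCND3 its ratios were 0.00, -0.16 and 0.14.

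**Figure D3:**
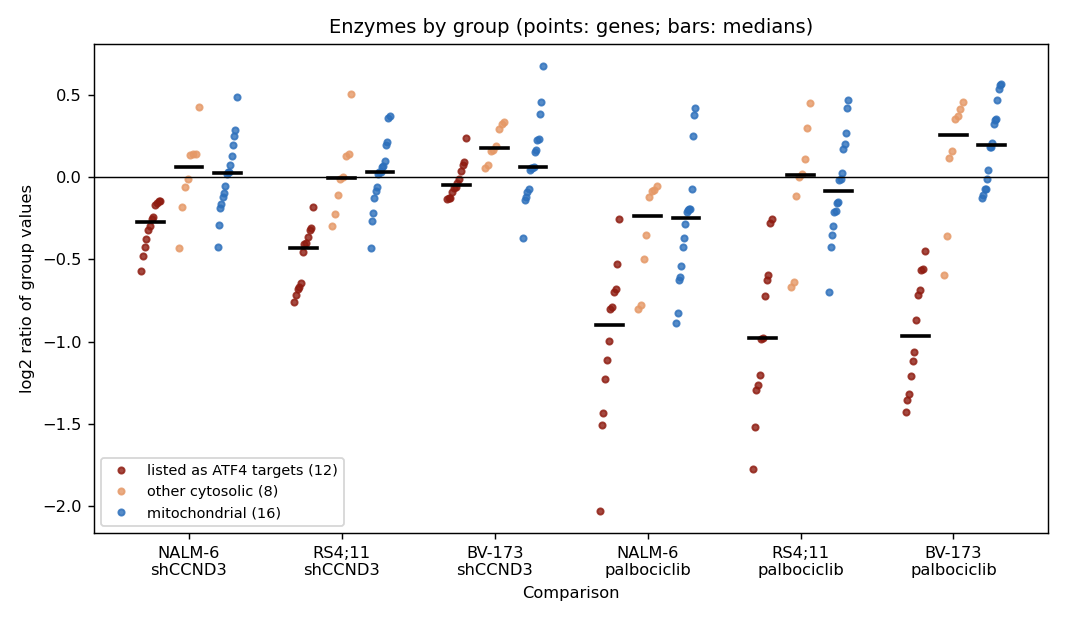
Log2 ratios (points, 1 per gene) and medians (bars) of 12 cytosolic enzymes listed as ATF4 targets, 8 other cytosolic enzymes and 16 mitochondrial enzymes in the 6 comparisons. With palbociclib the medians of the 12 are -0.90, -0.98 and -0.97, below those of both other groups in each line.

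The multisynthetase complex did not move as 1 unit. Of its 11 members, 6, 5 and 2 were lower by line, and *DARS* and *MARS* were lower in all 3 lines. Of the 12 cytosolic enzymes outside the complex, 8 were lower in each line and 6 in all 3. The shares of all genes that were lower were 14.9%, 15.0% and 11.9% by line and 5.95% in all 3. The medians were -0.70, -0.42 and -0.45 in the complex and -0.89, -0.63 and -0.79 outside it. Within the complex the palbociclib means ran from -1.02 for *MARS* to 0.27 for *QARS*. The scaffold proteins spread in the same way. *EEF1E1*, which joins *MARS* to the complex, was at -1.07, -0.67 and -0.49, *AIMP1* at -0.78, -0.42 and -0.27 and *AIMP2* at -0.36, 0.09 and 0.02. The phenylalanine enzyme, which is built of an alpha and a beta chain from separate genes, had its beta gene *FARSB* at -0.78, -0.64 and -0.36 and its alpha gene *FARSA* at -0.08, 0.02 and 0.42.

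Synthetases fall into classes I and II, which have unrelated catalytic folds. Class I enzymes of the cytosol (10 genes) had a median of the mean palbociclib ratios of -0.75 and class II enzymes (10 genes) of -0.66. *EPRS* holds a class I and a class II part and was counted in class I. In these classes 3 and 5 genes were lower in all 3 lines, beside 5.95% of all genes.

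The mitochondrial enzymes moved less and less evenly. The median of their palbociclib ratios was -0.25, -0.08 and 0.20, with 13, 10 and 5 of 16 below 0, while that of the cytosolic enzymes was -0.74, -0.63 and -0.58, with 20, 15 and 14 of 20 below 0. Of all genes, 46.5%, 48.3% and 47.1% were below 0. Over the lines the median of the mean ratios was -0.08 in the mitochondrial enzymes, -0.68 in the cytosolic enzymes and 0.04 in all genes. *IARS2*, *VARS2*, *FARS2* and *SARS2* were negative in all 3 lines, and *CARS2*, *EARS2* and *MARS2* were positive in all 3. The other 9 changed sign between lines. *LARS2* (leucine) was at -0.20, -0.35 and 0.35, *WARS2* (tryptophan) at -0.28, -0.20 and 0.18 and *YARS2* (tyrosine) at -0.07, -0.15 and 0.47, in each case positive in BV-173 only. *RARS2* (arginine) stayed within -0.19 to 0.05 in all lines. *NARS2* differed between lines, at 699, 1032 and 1431 with DMSO and 379, 1431 and 1331 with palbociclib.

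In the same 14 pairs the log2 ratios were compared. With palbociclib the cytosolic gene had the lower mean ratio in 10 of the 14 pairs, and the median difference of log2 ratios was -0.48. By line the difference was -0.19, -0.53 and -0.85, and the cytosolic gene was the lower in 8, 9 and 10 pairs. *CARS* less *CARS2* was -1.42, -1.47 and -1.91 (mean -1.60 ± 0.27, SD, n = 3 lines), *MARS* less *MARS2* was -1.18, -1.63 and -1.64 (-1.48 ± 0.26) and *AARS* less *AARS2* was -1.49, -1.08 and -1.64 (-1.40 ± 0.29). These were the largest differences. *FARSA*, *HARS*, *RARS* and *VARS* were the exceptions, with a higher ratio than their mitochondrial partner in each of the 3 lines. They are also the only ones of the 8 cytosolic enzymes outside the ATF4 list that occur in the 14 pairs. That list was written with earlier results of these data known, so this restates the same values. The phenylalanine exception rested on the chain: *FARSB* less *FARS2* was -0.15, -0.63 and -0.24, and with *FARSB* in place of *FARSA*, a choice made after the values were seen, the cytosolic gene was the lower in 11 of 14 pairs.

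**Figure D4:**
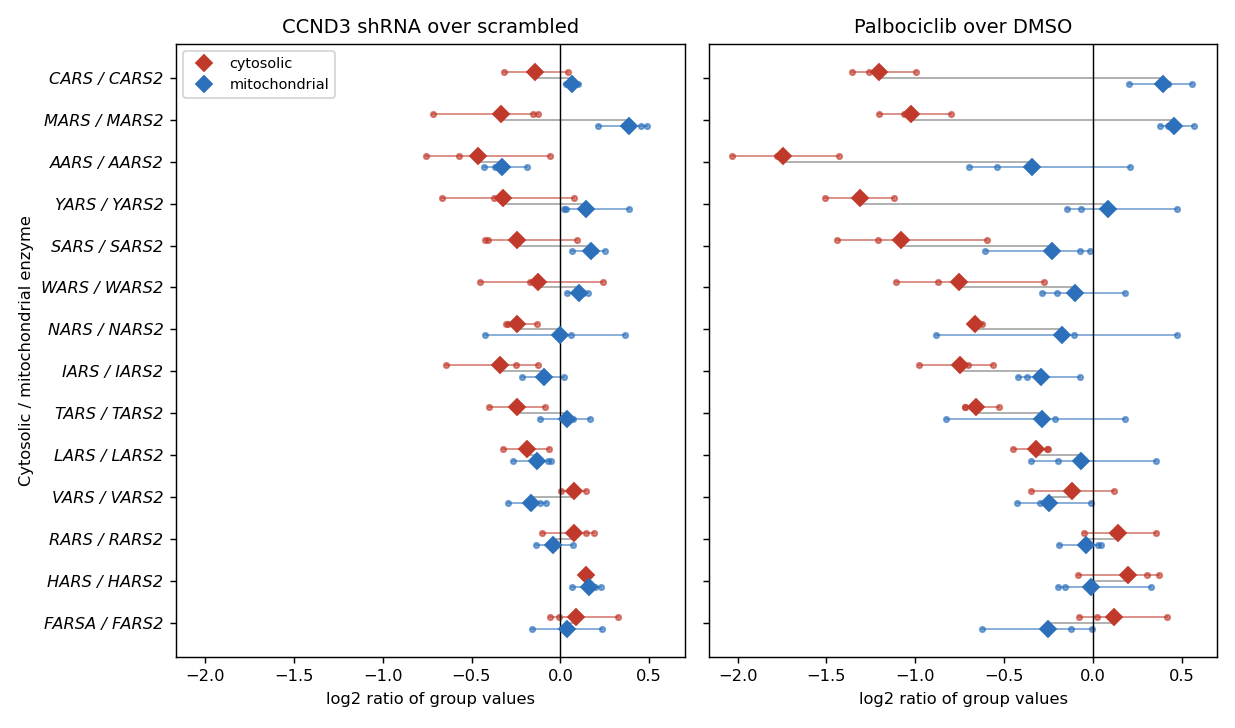
Log2 ratios of the cytosolic (red) and mitochondrial (blue) enzyme of 14 amino acids with shCCND3 (left) and palbociclib (right). Diamonds are means over 3 lines, small points the lines, coloured bars their range, and grey lines join the means of a pair. With palbociclib the red diamond lies left of the blue one in 10 of 14 pairs, with the widest gap in CARS and CARS2.

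Knockdown of *CCND3* moved the family less. None of the 39 genes was lower in NALM-6 or BV-173, beside 8.47% and 4.78% of all genes, and 6 were lower in RS4;11 (15.4%, beside 9.72% of all genes), namely *AARS*, *MARS*, *GARS*, *YARS*, *EEF1E1* and *IARS*. None was higher in NALM-6 or RS4;11, beside 7.82% and 9.73% of all genes, and *PARS2* was higher in BV-173, where 3.32% of all genes were. Of all genes with a mean group value of at least 100, 9.88%, 11% and 4.5% were lower and 6.49%, 8.3% and 3.33% higher. None passed the fold in all 3 lines in either direction, beside 1.75% of all genes that were lower and 0.584% that were higher. Nearest to the threshold stood *AARS* (-0.57) outside it in NALM-6, *IARS* (-0.65) inside and *WARS* (-0.45) outside in RS4;11, and *AARS2* (-0.37) outside in BV-173.

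*AARS* was again the lowest. It was at 7720.2, 5299.6 and 9432 with scrambled shRNA and at 5192, 3132 and 9068 with shCCND3, with log2 ratios of -0.57, -0.76 and -0.06 and a mean of -0.46 ± 0.36. *GARS* went from 8124, 3619 and 9623 to 5818, 2260.1 and 9392 (-0.40 ± 0.33). NALM-6 and RS4;11 had lower values and BV-173 nearly equal ones, so that the SD over lines was close to the mean itself. *EEF1E1*, at -0.54, -0.66 and 0.01, and *IARS*, at -0.25, -0.65 and -0.13, were next in order. *MARS* was at -0.16, -0.72 and -0.13 and *YARS* at -0.38, -0.67 and 0.07, both lowest in RS4;11. In BV-173 the 20 cytosolic enzymes ran from -0.13 to 0.34, so that the enzymes that were lower in RS4;11 were near their control there. *SARS*, at -0.42, -0.41 and 0.09, and *DARS*, at -0.43, -0.29 and 0.06, were negative in NALM-6 and RS4;11 and not in BV-173. Among the mitochondrial enzymes *AARS2*, at -0.19, -0.43 and -0.37, *LARS2*, at -0.05, -0.27 and -0.07, and *VARS2*, at -0.29, -0.08 and -0.12, were negative in all 3 lines, all short of 1.5-fold, while 7 of the 16 (*CARS2*, *EARS2*, *HARS2*, *MARS2*, *SARS2*, *WARS2* and *YARS2*) were positive in all 3.

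The highest means with shCCND3 were those of *QARS* and *MARS2*. *QARS* went from 4303, 6534 and 5571 to 5793, 9279 and 6821, with a mean of 0.41 ± 0.11, and *MARS2* from 1120.2, 606 and 801 to 1572, 702 and 1099.7, with a mean of 0.39 ± 0.15. Both had a higher value in all 3 lines. *EARS2* was at 0.29, 0.38 and 0.05 and *SARS2* at 0.25, 0.20 and 0.06. *PARS2* in BV-173 went from 179.9 to 288, while it was at -0.10 in NALM-6 and -0.13 in RS4;11.

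The split between the 12 enzymes listed as ATF4 targets and the 8 others also appeared with shCCND3, at a smaller size. The medians were -0.27, -0.43 and -0.05 in the 12 and 0.06, 0.00 and 0.18 in the 8. Of the 12, 8 were negative in all 3 lines, against none of the others. In BV-173 these negative ratios ran only from -0.13 (*NARS*) to -0.01 (*EPRS*). The list was written with earlier results of these data known, so nothing is read from these counts. The cytosolic enzymes as a whole had medians of -0.17, -0.31 and 0.07 and the mitochondrial enzymes of 0.03, 0.03 and 0.06. In pairs the cytosolic gene had the lower mean ratio in 11 of 14, with a median difference of -0.22, and in 10, 11 and 7 pairs by line. *MARS* less *MARS2* was -0.65, -0.93 and -0.59, *YARS* less *YARS2* was -0.41, -0.69 and -0.31 and *SARS* less *SARS2* was -0.67, -0.60 and 0.03.

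The treatments were set side by side, since they have separate controls. All 6 genes that were lower with shCCND3 in RS4;11 were also lower with palbociclib there, which is 100% of the knockdown list and 42.9% of the 14 genes of the palbociclib list. Of all genes listed in the 6 tables, 77.7% of those lower with shCCND3 in RS4;11 were lower with palbociclib, which is 51.0% of the palbociclib list. Across the 39 genes the mean ratios of the treatments were correlated with r = 0.845 (Pearson) and rho = 0.858 (Spearman), and 32 had the same sign. Across the 13307 genes listed in all 6 tables r was 0.750 and rho 0.670, and 9894 had the same sign. By line r was 0.767, 0.883 and 0.411 in the 39 genes. These are descriptions across genes, which are not independent and share the samples of each comparison.

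Within this shared order, palbociclib gave the lower ratio in 31 of the 39 genes, and in 17 of the 20 cytosolic enzymes, 13 of which had it lower in every line. The same held for 11 of the 16 mitochondrial enzymes and for 49.3% of all genes. The difference of log2 ratios, knockdown less palbociclib, was largest for *AARS*, at 1.46, 1.02 and 1.37 (mean 1.28 ± 0.23, SD, n = 3 lines), followed by *CARS* at 0.85, 0.94 and 1.39 (1.06 ± 0.29) and *YARS* at 1.13, 0.63 and 1.19 (0.99 ± 0.31). It was lowest for *CARS2* at -0.39, -0.10 and -0.50 (-0.33 ± 0.21), then for *EARS2* at 0.04, 0.20 and -0.49 and *MARS2* at 0.11, -0.21 and -0.11. Times after treatment differed (4 and 3 days), as did the sorting of transduced cells.

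**Figure D5:**
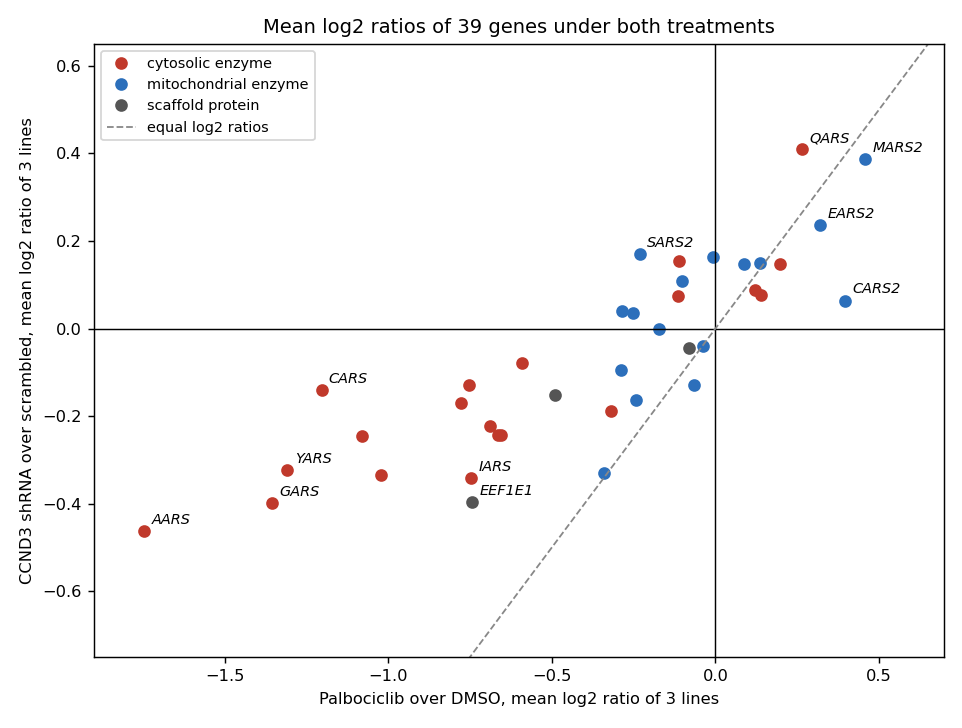
Mean log2 ratio over 3 lines with palbociclib (x axis) and shCCND3 (y axis) for 39 genes, red for cytosolic, blue for mitochondrial and grey for scaffold. The dashed line marks equal ratios, and 31 of 39 points lie above it, AARS farthest with a difference of 1.28.

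Genes around the family were described from fixed lists. *TARSL2*, a second cytosolic threonine enzyme that was not among the 39, went the other way from its paralog *TARS*. It was at 40.9, 801 and 115 with DMSO and at 366, 2425 and 495 with palbociclib, with ratios of 3.16, 1.60 and 2.11, and with shCCND3 at 0.85, 0.57 and 0.44. *TARS* had ratios of -0.53, -0.72 and -0.72 with palbociclib.

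*XPOT*, the exportin that carries tRNA out of the nucleus, went from 7975, 6789 and 11673 with DMSO to 4017, 4189 and 6374 with palbociclib. It was the 1 gene lower in all 3 lines among 9 listed genes of tRNA export, maturation and proofreading, beside 5.95% of all genes. *TSEN54*, of the tRNA splicing endonuclease, followed with a mean of -0.50, and the largest positive means of that list were those of *DTD2* (0.32) and *LAGE3* (0.21). *LAGE3* was at -0.04, -0.04 and 0.70, so its positive mean came from BV-173. In the 4 genes that form mitochondrial glutaminyl-tRNA and formyl-methionyl-tRNA, the mean palbociclib ratios ran from -0.14 (*QRSL1*) to 0.19 (*MTFMT*). *QRSL1* differed between lines, at 0.53, 0.01 and -0.95. In the 4 genes of selenocysteine they ran from -0.54 (*SECISBP2*) to 0.66 (*PSTK*).

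Among factors that act on the charged tRNA or the ribosome, the values depended on the line. The 6 cytosolic elongation factors had a median mean ratio of 0.30 with palbociclib and 0.35 with shCCND3. *EEF2*, which moves the ribosome along the mRNA, was at 0.70, 0.66 and 0.55 with shCCND3 and -0.15, 0.51 and 0.42 with palbociclib. The 9 mitochondrial translation factors had medians of 0.11 and 0.00, with *TUFM*, the mitochondrial elongation factor Tu, at 0.25 and *MTIF2*, an initiation factor, at -0.43 with palbociclib. In NALM-6 with palbociclib the median was -0.12 in both lists, and *MTIF2* was lower by 1.5-fold (-0.65). *EEF1D*, *MTIF2* and *MTRF1* had negative palbociclib ratios in all 3 lines.

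The wider ATF4 list of 27 genes, with its amino acid transporters and biosynthetic enzymes, had a median mean ratio of -1.30 with palbociclib. Of the 27, 16 were lower in all 3 lines and none higher in all 3, beside 5.95% and 4.53% of all genes. The list was chosen with earlier results of these data known, so nothing is read from its counts. With shCCND3 the median was -0.24, and none of the 27 was past the fold in all 3 lines. Of all genes, 1.75% were lower and 0.584% higher in all 3. By line, 9 of the 27 were lower in NALM-6 and 14 in RS4;11, with medians of -0.49 and -0.59. In BV-173 none was lower, with a median of 0.19. The shares of all genes that were lower were 8.47%, 9.72% and 4.78%. *SLC7A11*, the cystine transporter, and *PHGDH*, the first enzyme of serine synthesis, had the lowest palbociclib means of -2.84 and -2.74, and *EIF2AK3* and *DDIT4* the highest, 0.29 and 0.23. *ASNS*, which makes free asparagine, was at -1.54, 1.12 and -2.50, with RS4;11 opposite to the other lines. *MYC*, whose product binds the E-box, was at 0.06, 0.28 and 0.42 with palbociclib and 0.10, 0.01 and 0.60 with shCCND3, and *MXD4*, a MAX partner that represses at the same element, was at 3.47, 2.17 and 1.47 and 1.47, 1.11 and 0.56.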

How the data were processed

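RNA-seq of 34 samples in 12 groups was analysed. Per the labels and the study's methods, the authors' pipeline was SOAPnuke for read filtering, Bowtie2 on hg38 for mapping, RSEM for gene levels and DESeq2 for each pair of groups. Tool versions and the strand setting are not given in the sources used here. The authors' deposited tables hold, for each group, 1 signal that is scaled within its comparison, transcript length, and the authors' fold changes and p-values, whose columns were not used. The log2 ratio of the 2 signals of a gene equals the authors' log2 fold change, so the ratios below carry the authors' fit and are no separate estimate.

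The log2 ratio of both signals was taken with nothing added and no filter, averaged over lines without weights, and no test was run. Samples were grouped by the labelled line and treatment. Ratios of low genes were narrow in these tables: the 95th percentile of the absolute log2 ratio was 0.231 to 0.926 for genes with a mean signal under 1 and 0.703 to 1.78 for means of 100 to 1000. Members and gene lists were chosen with earlier results of these data known. Described in full were the 4 lowest and 4 highest means per treatment, the 3 pairs with the largest difference, the 3 lowest and 3 highest differences between treatments, and the extremes of each list, except that 1 gene of the lists is not reported here. Levels were divided by the deposited length. Positions, symbols and promoters are RefSeq's (GRCh38.p14). Scripts ran in Python 3.11.15 (numpy 2.4.6, pandas 2.3.3, matplotlib 3.10.9) and were tested on simulated data.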

Additional observations from a re-analysis of the deposited data

Results flagged for a closer look

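In 2 of the 16 mitochondrial synthetases the palbociclib ratios of 2 lines were opposite in sign and at least 1 apart on the log2 scale. *NARS2* was at -0.88, 0.47 and -0.10 (NALM-6 first, BV-173 last), so that the highest less the lowest ratio was 1.36. *TARS2* was at -0.83, -0.21 and 0.18, with a difference of 1.01. Each ratio rests on 1 value per group, and the difference between lines was not tested.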

How the results depend on the processing

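Counts depended on the fold. At 2-fold, 6, 5 and 6 of the 39 genes were lower with palbociclib (NALM-6 first, BV-173 last) in place of 18, 14 and 10, and 3 in place of 8 were lower in all 3 lines. With shCCND3, 0 in place of 6 were lower in RS4;11, and 0 in place of 1 higher in BV-173. The median mean ratio of the mitochondrial enzymes with shCCND3, 0.05, was 0.12 without NALM-6 cells and -0.0084 without BV-173 cells. Other settings were centring on the median of all genes, adding 1 to both values and keeping genes with a mean of at least 100. Each line was also left out. None of these moved another count by over 1.5 times or another median by over the SD between lines (88 values). Of the values of single genes, 506 stayed within that SD. Where 1 of the 3 lines was left out this was fixed in advance, since a mean of 3 values cannot then move by over their SD. Those values of single genes are therefore no sign of stability. Within the limit of 1.5 times, the palbociclib counts rose with centring. They went from 18 to 20 in NALM-6 (*AARS2* and *TARS* added) and from 10 to 12 in BV-173 (*EPRS* and *IARS* added). The count lower in all 3 lines went from 8 to 11. The palbociclib mean of *NARS* moved, to -0.70 after centring. No value past 1.5-fold changed sign. Values near 0 did: the palbociclib median of the mitochondrial enzymes, -0.08, was 0.02 without NALM-6 cells, and 17 of 78 mean ratios of single genes, all within 0.17 of 0, changed sign under at least 1 setting. *FARSB* in place of *FARSA*, added after the data were seen, left the pair medians at -0.48 and -0.22. No pair held *GARS* or *KARS*, so leaving such pairs out gave no value. No paired analysis was possible because the tables hold 1 value per group, and for the same reason no replicate could be left out and the depth per sample sets no limit that can be given.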
